A study of Mus musculus with 56 samples.

Results

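Immunised mice in this study of collagen-induced arthritis (CIA) differed widely in how much RNA of neutrophil marker genes their front paws held. The 16 neutrophil-rich and 16 neutrophil-poor paws described here make up 32 of the 52 immunised paws and of the 56 paws sequenced. Each paw was given a score, the mean log2(FPKM + 1) of the neutrophil genes S100a8, S100a9, Cxcr2, Csf3r and Retnlg, where FPKM counts fragments per length of transcript and per depth of the library. The paws were thus chosen by the measured levels of these 5 genes. Within each of the 4 treatments the 4 paws with the highest scores were called neutrophil-rich and the 4 with the lowest neutrophil-poor, which leaves 20 paws between them. All mice were male and of the DBA/1 strain, which is susceptible to this model; the groups were formed from measured RNA, so no mouse was assigned to be neutrophil-rich or neutrophil-poor. The immunised mice received chicken type II collagen on days 1 and 21, and from day 21 on they were injected into the peritoneum 2 times a week over 5 weeks. The injections were anti-TNF (clone XT3.11, 30 mg/kg), anti-IL-6 (clone MP5-20F3, 10 mg/kg), the combination of both at these doses, or an IgG1 isotype control at 30 mg/kg, with 13 mice in each treatment. The 4 no CIA mice are labelled as without CIA and without treatment, and ages are not given in the labels. RNA came from whole front paws on day 91, when dosing had ended, so skin, muscle, bone, marrow, joint and blood were read together, each library from a separate mouse.

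Neutrophils are short-lived granulocytes that leave the bone marrow, follow chemokines such as Cxcl1 and Cxcl5 through activated endothelium, and release proteases, oxidants and the S100a8 and S100a9 alarmins. In arthritic joints they gather in synovial tissue and fluid together with macrophages, and synovial fibroblasts and osteoclasts degrade cartilage and bone there. In mouse marrow, granulocyte precursors express primary granule genes such as Elane and Mpo, secondary granule genes such as Camp, Ltf and Ngp follow, and mature cells express Cxcr2.

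The score lay between 4.71 and 7.35 in neutrophil-rich paws and between 1.78 and 3.92 in neutrophil-poor paws. The 20 paws in between had scores of 3.34 to 5.11, and the 4 no CIA paws had 1.70 to 2.51. Neutrophil-poor paws therefore began near the no CIA level. Among the score genes, S100a9 had 322 to 1621 FPKM in neutrophil-rich paws (median 725) and 6.22 to 135 FPKM in neutrophil-poor paws (median 30.8). Csf3r, the receptor for granulocyte colony-stimulating factor, had 3.44 to 93.6 FPKM in neutrophil-rich paws (median 15.8) and 0.715 to 3.71 FPKM in neutrophil-poor paws (median 1.24), and Cxcr2, the receptor for Cxcl1 and Cxcl5, had 1.62 to 31.8 FPKM in neutrophil-rich paws (median 5.0) and 0.384 to 1.08 FPKM in neutrophil-poor paws (median 0.731). These values chose the groups and are a description. The paw with the highest S100a8, 967 FPKM (anti-TNF replicate 12), had 2.94 FPKM of Cxcr2 and 7.76 FPKM of Csf3r. It also had the highest mean level of a list of stressed keratinocyte genes, 8.24 on the log2(FPKM + 1) scale. Over the 52 immunised paws that level did not follow the score (r = 0.013). The part of cells other than neutrophils in the score was not tested. The gap at the cut-offs was narrow in some treatments: the lowest neutrophil-rich score and the highest score left out were 5.67 and 4.90 under anti-TNF, 5.30 and 5.11 under anti-IL-6, 4.71 and 4.65 in the combination group, and 5.48 and 4.43 under isotype. At the lower end, the lowest score left out and the highest neutrophil-poor score were 4.18 and 3.92, 3.81 and 3.62, 3.343 and 3.335, and 3.85 and 3.50 in the same order of treatments.

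**Figure D1:**
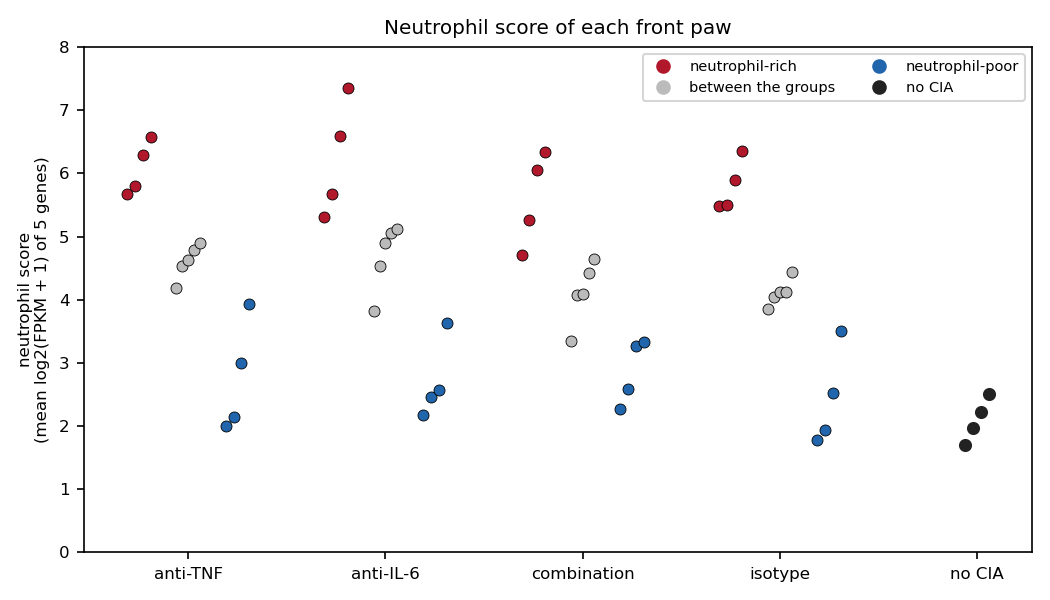
Neutrophil score of each of the 56 front paws (vertical axis, mean log2(FPKM + 1) of 5 genes) by treatment (horizontal axis); each point is 1 mouse and colours give the neutrophil-rich, in-between, neutrophil-poor and no CIA paws. Within each treatment 4 rich paws sit above 4 poor ones, from 4.71 to 7.35 against 1.78 to 3.92, and the no CIA paws lie at 1.70 to 2.51.

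Estimated depth was 39.8 to 54.6 M fragments per library, with means of 47.3 ± 3.84 M in neutrophil-rich and 46.7 ± 2.84 M in neutrophil-poor paws (SD, n = 16 each). The titles carry index numbers and mouse numbers and name no batch. In order of index number the mouse numbers ascend and then start again 4 times, with 1 isotype library out of order, which divides the libraries into 5 stretches, called index runs here. This division is drawn from the order of the labels. The titles at index numbers 45, 58 and 84, the first of runs 2, 3 and 5, add a suffix after the mouse number. Its meaning is not given. Neutrophil-rich paws took 2, 2, 3, 5 and 4 libraries from runs 1 to 5, and neutrophil-poor paws 0, 3, 7, 3 and 3. Values within runs 2 to 5 are given beside the leading genes below, since run 1 held no neutrophil-poor paw. All 4 no CIA paws were in run 1, so no CIA levels and that run cannot be told apart.

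Genes outside the score were tested between the 2 groups with treatment as a covariate, by limma on log2(FPKM + 1). Of 14303 genes tested, 5422 (37.9%) were higher in neutrophil-rich paws and 2860 (20%) were lower at an adjusted p under 0.05, so 57.9% of all genes were called. The median log2 difference over all genes was 0.07. A call by itself is therefore common here, and sizes are given with it. A log2 difference of at least 1 was reached by 547 called genes in the higher direction (3.82%) and by 237 in the lower direction (1.66%). For 86 genes (0.601%) the groups did not overlap, and 81 of these were higher in neutrophil-rich paws. In whole paws, a change in the number of cells of a type and a change in RNA per cell cannot be told apart. Scaling libraries by the median of ratios instead of FPKM turned the split to 3962 higher and 4341 lower and moved the median log2 difference of all genes to -0.01. The medians of the 35 gene lists below kept their sign under that scaling.

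The 20 paws between the groups took no part in that contrast. There, 0 genes had a slope on the score that passed the same limma test, with 468 rising and 161 falling at an unadjusted p under 0.05. Together these were 629 of 14303 genes (4.4%), no more than this threshold gives by chance. Of the 5422 genes higher in neutrophil-rich paws, 4797 (88.5%) also had a slope above 0 in these 20 paws, against 59.7% of all genes. Of the 2860 lower genes, 2284 (79.9%) had a slope below 0, against 40.3% of all genes. Scores of these paws spanned a narrower range than those of the 2 groups.

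The largest difference was that of Saa3 (ENSMUSG00000040026.8), an acute phase serum amyloid A protein made in inflamed tissue. Saa3 had 15.9 to 1802 FPKM in neutrophil-rich paws (median 163), against 0.234 to 80.8 FPKM in neutrophil-poor paws (median 4.06). The groups overlapped under anti-TNF, where a poor paw reached 80.8 FPKM and a rich paw stood at 15.9 FPKM, and were apart within each of the other 3 treatments. The log2 difference was 4.76 ± 0.611 (SE, limma adjusted p = 3.14e-07), and within index runs it lay between 4.06 and 5.05. No CIA paws had 0.401 to 1.38 FPKM.

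Matrix-degrading enzymes and an inhibitor of them were also among the 8 genes of largest size. Mmp13, the collagenase that cleaves type II collagen, had 21.2 to 442 FPKM in neutrophil-rich paws (median 268), against 1.16 to 167 FPKM in neutrophil-poor paws (median 8.25). Mmp3, also called stromelysin, had 33.9 to 1693 FPKM in neutrophil-rich paws (median 365), against 7.81 to 147 FPKM in neutrophil-poor paws (median 14.9). Timp1, an inhibitor of matrix metalloproteinases, had 37 to 1735 FPKM in neutrophil-rich paws (median 268), against 7.1 to 260.5 FPKM in neutrophil-poor paws (median 20.9). For all 3 genes the groups were apart within anti-IL-6, the combination and isotype and overlapped within anti-TNF, where the highest poor paws had 167, 147 and 260.5 FPKM. Log2 differences were 4.38 ± 0.46 for Mmp13, 4.26 ± 0.428 for Mmp3 and 3.46 ± 0.415 for Timp1 (SE, limma adjusted p = 2.37e-08, 1.61e-08 and 1.28e-07), with 3.36 to 5.33, 3.39 to 5.20 and 2.76 to 4.23 within index runs. Of 11 tested genes for matrix proteases and their inhibitors, 10 were higher and 1 was lower, with a median of 1.78. The lower one was Timp3, a matrix-bound inhibitor named after its value was seen (-0.28 ± 0.10, SE, limma adjusted p = 0.0199).

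All 4 genes were higher in neutrophil-rich paws, and the bases just upstream of their starts are shown from the RefSeq promoter table, 250 bases each on GRCm38.p6. Saa3 lies on the minus strand (chr7:46715677-46715926), and Mmp13 (chr9:7272264-7272513), Mmp3 (chr9:7445572-7445821) and Timp1 (chrX:20869916-20870165) lie on the plus strand. Capitals mark matches to 1 of 4 motifs searched on both strands: AP-1 (TGANTCA), NF-kB (GGG and TTCC with any 3 bases between them), C/EBP (TTNNGNAAT) and STAT (TTCNNNGAA).
Saa3: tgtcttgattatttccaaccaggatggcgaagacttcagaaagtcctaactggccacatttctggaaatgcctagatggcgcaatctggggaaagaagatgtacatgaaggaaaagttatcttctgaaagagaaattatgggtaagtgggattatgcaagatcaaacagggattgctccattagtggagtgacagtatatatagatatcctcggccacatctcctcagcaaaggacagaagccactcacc
Mmp13: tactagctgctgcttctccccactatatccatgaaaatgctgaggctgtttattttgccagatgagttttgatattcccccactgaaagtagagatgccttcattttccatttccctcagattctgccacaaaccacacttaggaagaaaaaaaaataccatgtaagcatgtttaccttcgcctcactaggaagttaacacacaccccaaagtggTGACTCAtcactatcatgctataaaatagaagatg
Mmp3: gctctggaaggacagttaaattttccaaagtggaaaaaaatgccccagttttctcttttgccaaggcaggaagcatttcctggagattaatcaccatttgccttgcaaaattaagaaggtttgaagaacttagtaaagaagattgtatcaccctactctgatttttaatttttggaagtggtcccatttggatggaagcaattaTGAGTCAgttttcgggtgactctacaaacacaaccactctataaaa
Timp1: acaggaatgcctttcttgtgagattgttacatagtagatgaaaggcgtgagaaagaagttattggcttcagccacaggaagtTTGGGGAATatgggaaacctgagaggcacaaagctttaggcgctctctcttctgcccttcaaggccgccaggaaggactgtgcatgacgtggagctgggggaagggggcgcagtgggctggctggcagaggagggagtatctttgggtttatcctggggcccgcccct
Counted back from the base before the start, Mmp13 held an AP-1 match at -35 to -29, Mmp3 an AP-1 match at -46 to -40 and Timp1 a C/EBP match at -168 to -160. The Saa3 window held none of the 4 letter patterns. AP-1 matches occurred in 6.9% of 27025 promoters of the table, in 5.0% of the 10645 belonging to tested genes and in 9.9% of the 392 belonging to called genes higher by at least 1. For C/EBP these shares were 10.3%, 6.9% and 14.0%, for STAT 7.2%, 5.9% and 8.4%, and for NF-kB 4.6%, 5.2% and 6.1%. Matches are descriptions of letters, not of binding.

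Chemokines that draw neutrophils were higher where the neutrophil score was high. Cxcl5 had 0.264 to 226 FPKM in neutrophil-rich paws (median 31.3), against 0.0145 to 3.36 FPKM in neutrophil-poor paws (median 0.221). Cxcl1 had 1.02 to 54.6 FPKM in neutrophil-rich paws (median 16.1), against 0.545 to 4.41 FPKM in neutrophil-poor paws (median 1.67). For both genes the lowest neutrophil-rich value was that of a combination paw, and the groups overlapped within anti-TNF and the combination but not within anti-IL-6 or isotype. Log2 differences were 4.20 ± 0.554 and 2.50 ± 0.344 (SE, limma adjusted p = 4.64e-07 and 8.16e-07), and Cxcl5 differed by 2.76 to 5.06 within index runs. All 6 tested genes of neutrophil attractants and colony-stimulating factors were higher, with a median of 1.86. Members under the level for testing, picked after their values were seen, were Csf3, the granulocyte colony-stimulating factor, with 0.0153 to 2.02 FPKM in neutrophil-rich paws (median 0.604), against 0 to 0.164 FPKM in neutrophil-poor paws (median 0.028), and Il17a, a T cell cytokine that induces these chemokines, with 0.0175 to 2.87 FPKM in neutrophil-rich paws (median 0.201), against 0 to 0.314 FPKM in neutrophil-poor paws (median 0).

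Il1b, which encodes interleukin 1 beta, had 2.08 to 123 FPKM in neutrophil-rich paws (median 37.5), against 0.537 to 5.4 FPKM in neutrophil-poor paws (median 1.61). A single neutrophil-rich paw, the combination paw at 2.08 FPKM, fell inside the neutrophil-poor range. The log2 difference was 3.41 ± 0.385 (SE, limma adjusted p = 5.9e-08), or 2.72 to 3.96 within index runs. Il1rl1, the receptor for interleukin 33, was higher by 1.30 ± 0.219 (SE, limma adjusted p = 1.5e-05). Against 37.9% higher and 20% lower of all genes, 8 of 13 tested genes of interleukin 1 and the inflammasome were higher and 3 lower. Their median was 0.71. The lower ones, named after their values were seen, were Il18, an interferon gamma inducing cytokine, at -0.74, Il1a, the alarmin form of interleukin 1, at -0.67, and Pycard, the inflammasome adaptor, at -0.27 (limma adjusted p = 1.51e-05, 0.000223 and 0.0431). Il1a and Il18 are also made by keratinocytes, and epidermal genes fell in the same paws, as described below; their part in the result was not tested.

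CC chemokines and their receptors rose as a group, with 12 of 12 genes higher and a median of 1.41. Ccl4, a macrophage chemokine, had 0.374 to 19.7 FPKM in neutrophil-rich paws (median 3.91), against 0.0306 to 0.914 FPKM in neutrophil-poor paws (median 0.211). Ccl7, a monocyte attractant, had 4.07 to 224 FPKM in neutrophil-rich paws (median 36.1), against 4.08 to 15.3 FPKM in neutrophil-poor paws (median 7.58). Ccl4 overlapped at a few paws, while the lowest rich value of Ccl7 lay below all poor paws, and log2 differences were 2.12 ± 0.294 and 1.95 ± 0.358 (SE, limma adjusted p = 9.53e-07 and 4.62e-05). Genes of the acute phase and of STAT3 signalling followed the same direction, with 10 of 12 higher, 1 lower and a median of 1.32. Saa1, a second serum amyloid A gene whose reads its close copy Saa2 can share, was higher by 2.46 ± 0.301 (SE, limma adjusted p = 1.67e-07). Genes responding to NF-kB numbered 13 higher and 0 lower of 14, with a median of 0.69. They were led by Tnfaip6, a hyaluronan-binding protein induced by TNF (1.59 ± 0.237), and Traf1, a signalling adaptor of TNF receptors (1.39 ± 0.15; SE, limma adjusted p = 2.68e-06 and 3.37e-08).

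**Figure D2:**
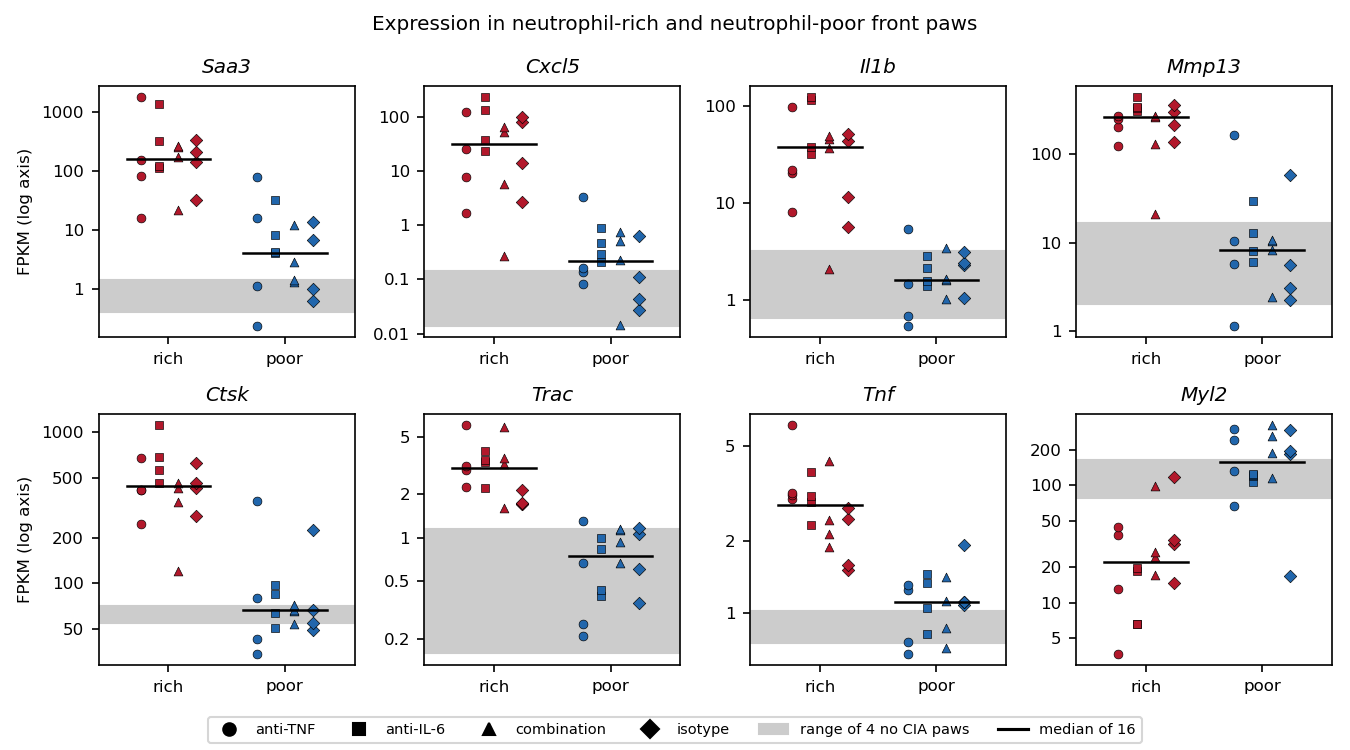
FPKM (log axis) of 8 genes in 16 neutrophil-rich paws (left, red) and 16 neutrophil-poor paws (right, blue); marker shapes give the treatment, black lines the median of 16 paws, and grey bands the range of the 4 no CIA paws. For Trac the groups do not overlap, and for the other 7 genes single paws reach into the other group's range, while the poor medians lie within the no CIA band except for Saa3, Cxcl5 and Tnf, whose poor medians of 4.06, 0.221 and 1.11 FPKM lie above it.

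The antibody targets themselves were tracked paw by paw. Il6 had 0.886, 0.988, 2.05 and 7.42 FPKM in neutrophil-rich paws under anti-TNF, against 0.0664, 0.0959, 0.128 and 0.599 FPKM in neutrophil-poor ones. Under anti-IL-6 it had 3.25, 3.39, 9.29 and 14 FPKM in rich paws and 0.142, 0.193, 0.266 and 0.406 FPKM in poor paws. In the combination group rich paws had 0.28, 1.06, 4.26 and 6.16 FPKM and poor paws 0.12, 0.163, 0.201 and 0.366 FPKM. The combination group was the 1 treatment in which the Il6 ranges overlapped. Under isotype Il6 stood at 1.73, 2.9, 5.49 and 8.24 FPKM in rich paws and 0.0239, 0.0848, 0.109 and 0.124 FPKM in poor paws. Over the 4 treatments Il6 was higher by 1.88 ± 0.244 (SE, limma adjusted p = 3.61e-07), and no CIA paws had 0 to 0.141 FPKM.

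Tnf had 1.51 to 6.12 FPKM in neutrophil-rich paws (median 2.83), against 0.673 to 1.92 FPKM in neutrophil-poor paws (median 1.11), which is 0.85 ± 0.109 on the log2 scale (SE, limma adjusted p = 2.82e-07). Its rich and poor ranges were apart under anti-TNF, anti-IL-6 and the combination and overlapped under isotype, where rich paws had 1.51, 1.58, 2.46 and 2.75 FPKM and poor paws 1.08, 1.11, 1.11 and 1.92 FPKM. Tnfrsf1b, the inducible TNF receptor of immune cells, was higher by 1.497 ± 0.171, and Tnfrsf1a, the receptor found on most cells, by 0.40 ± 0.0896 (SE, limma adjusted p = 6.75e-08 and 0.000387). Il6st, the signalling chain of the IL-6 receptor, was higher by 0.66 ± 0.082 (SE, limma adjusted p = 1.96e-07). Il6ra, the chain that binds IL-6, had 3.64 to 9.87 FPKM in neutrophil-rich paws (median 5.49), against 3.85 to 6.1 FPKM in neutrophil-poor paws (median 5.51). Its log2 difference of 0.06 ± 0.0856 did not pass (SE, limma adjusted p = 0.551), and under median-of-ratios scaling it was -0.02.

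Most other mature neutrophil genes rose with the score. They were listed for the same cell type as the score genes, so their counts describe the groups and are no independent measure of them. Which cells their RNA came from was not tested. Of 23 tested, 19 were higher and 1 was lower, with a median of 1.51. Lcn2, an iron-withholding granule protein that other inflamed cells make too, had 25.5 to 208 FPKM in neutrophil-rich paws (median 58), against 2.71 to 23 FPKM in neutrophil-poor paws (median 9.01). Its groups did not overlap (log2 difference 2.75 ± 0.259, SE, limma adjusted p = 9.06e-09). Mmp9, a gelatinase of neutrophil granules and osteoclasts, had 18.2 to 383 FPKM in neutrophil-rich paws (median 86.5), against 0.811 to 36.9 FPKM in neutrophil-poor paws (median 4.23), with an overlap of few paws (log2 difference 3.88 ± 0.374, SE, limma adjusted p = 1.02e-08). Ly6g, the antigen used to mark mouse neutrophils, was under the level for testing at 0.328 to 7.52 FPKM in neutrophil-rich paws (median 1.08), against 0 to 0.814 FPKM in neutrophil-poor paws (median 0.109). Fpr1, a receptor for bacterial peptides, was likewise untested at 0.345 to 6.26 FPKM in neutrophil-rich paws (median 1.9), against 0 to 0.273 FPKM in neutrophil-poor paws (median 0.095). Both were named after their values were seen, and both were near 0 in no CIA paws, at 0.0232 to 0.142 and 0.0303 to 0.0684 FPKM. The single lower member, also named after its value was seen, was Wfdc21, of the whey acidic protein family, at 21.3 to 131 FPKM in neutrophil-rich paws (median 71.6), against 96 to 225 FPKM in neutrophil-poor paws (median 156), with overlap (log2 difference -1.11 ± 0.185, SE, limma adjusted p = 1.15e-05).

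Genes of granulocyte precursors were higher with a wide overlap. Camp, the cathelicidin of secondary granules, had 2.17 to 253 FPKM in neutrophil-rich paws (median 13.8), against 0.333 to 24.3 FPKM in neutrophil-poor paws (median 3.79). Ngp, a neutrophilic granule protein, had 1.65 to 367 FPKM in neutrophil-rich paws (median 18.6), against 0.733 to 30.3 FPKM in neutrophil-poor paws (median 5.29). The groups overlapped within all 4 treatments for both genes. Log2 differences were 1.82 ± 0.568 and 1.78 ± 0.609 (SE, limma adjusted p = 0.00753 and 0.0138), and 9 of 10 tested precursor genes were higher and 0 lower, with a median of 1.08. The mean level of the list, on the log2(FPKM + 1) scale, was 0.79 to 4.98 in neutrophil-rich paws (median 1.85), against 0.36 to 2.13 in neutrophil-poor paws (median 0.95). Red cell genes, which marrow and blood both contribute, had a median of 0.80 and 1 higher of 6, against 37.9% higher of all genes. The higher one was Slc4a1, the band 3 anion exchanger (0.74 ± 0.30, SE, limma adjusted p = 0.0355). The red cell list's level was 1.43 to 5.03 in neutrophil-rich paws (median 1.99), against 1.37 to 2.58 in neutrophil-poor paws (median 1.85). With the muscle and epidermis levels as covariates 5 of 6 red cell genes were higher, at a median of 2.62, while 0 of 10 precursor genes were called, at a median of 1.90. That fit called 250 of all 14303 genes higher and 46 lower. With the index run as a covariate 0 red cell genes and 9 precursor genes were called, in a fit that called 4844 of all 14303 genes higher and 2372 lower. With the osteoblast list's level as a covariate, chosen after the data were seen, 0 precursor genes were called and Camp and Ngp stood at -0.34 and -0.40. The osteoblast fit called 3249 of all genes higher and 1769 lower.

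Most macrophage genes were higher. Of 20 tested, 15 were higher and 2 lower, against 37.9% higher and 20% lower of all genes, with a list median of 0.79. Ms4a7, a membrane protein of macrophages, had 7.48 to 80.4 FPKM in neutrophil-rich paws (median 28), against 3.42 to 19.1 FPKM in neutrophil-poor paws (median 5.64). Ly6c2, a marker of inflammatory monocytes that shares sequence with Ly6c1, had 5.26 to 59.8 FPKM in neutrophil-rich paws (median 12.8), against 0.556 to 7.61 FPKM in neutrophil-poor paws (median 2.56). The groups overlapped for both genes, and log2 differences were 1.97 ± 0.23 and 2.02 ± 0.282 (SE, limma adjusted p = 9.26e-08 and 1.03e-06). The lower ones, named after their values were seen, were Lyve1 and Vsig4, which resident macrophages express. Mrc1, Cd163 and Timd4, further genes of resident macrophages in the list, were tested and not called lower. Lyve1, a hyaluronan receptor also found on lymphatic vessels, had 3.0 to 9.64 FPKM in neutrophil-rich paws (median 5.36), against 7.51 to 25.9 FPKM in neutrophil-poor paws (median 16.9), and Vsig4, a complement receptor, had 2.44 to 9.63 FPKM in neutrophil-rich paws (median 4.68), against 3.16 to 12.9 FPKM in neutrophil-poor paws (median 8.19). Their log2 differences were -1.45 ± 0.154 and -0.68 ± 0.175 (SE, limma adjusted p = 2.81e-08 and 0.00157). Retnla, a secreted product of alternatively activated macrophages, was among the 8 lowest of all genes, at 4.45 to 104 FPKM in neutrophil-rich paws (median 15.9), against 28.6 to 160.5 FPKM in neutrophil-poor paws (median 114) (log2 -2.18 ± 0.316, SE, limma adjusted p = 1.72e-06).

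All 6 Fc receptor genes were higher, with a median of 1.11. Fcgr4, a low-affinity IgG receptor of myeloid cells, was higher by 1.71 ± 0.213, and Fcer1g, the signalling chain these receptors share, by 1.26 ± 0.175 (SE, limma adjusted p = 2.14e-07 and 8.97e-07). All 9 tested innate sensor genes were higher as well (median 0.70), led by the lectin receptors Clec4n at 2.35 ± 0.243 and Clec7a at 1.77 ± 0.227 (SE, limma adjusted p = 1.99e-08 and 3.13e-07), known as dectin-2 and dectin-1. All 8 class II antigen presentation genes were higher (median 0.89). Ciita, the transcriptional activator of class II genes, was higher by 0.98 ± 0.138, and H2-Oa, a subunit of a class II peptide-loading regulator, by 1.04 ± 0.158 (SE, limma adjusted p = 1.13e-06 and 3.4e-06). H2-Oa was at 1.5 to 11.7 FPKM in neutrophil-rich paws (median 2.38), against 0.486 to 1.38 FPKM in neutrophil-poor paws (median 0.836), without overlap.

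T cell genes were low in all paws and higher in the neutrophil-rich ones. Trac, the constant part of the T cell receptor alpha chain, had 1.61 to 5.99 FPKM in neutrophil-rich paws (median 3.04), against 0.209 to 1.31 FPKM in neutrophil-poor paws (median 0.754). Its groups did not overlap, and no CIA paws had 0.159 to 1.15 FPKM. Cd4, the helper T cell coreceptor, had 0.823 to 7.38 FPKM in neutrophil-rich paws (median 3.37), against 0.268 to 1.56 FPKM in neutrophil-poor paws (median 0.346), with a small overlap. Log2 differences were 1.16 ± 0.129 and 1.504 ± 0.161 (SE, limma adjusted p = 4.67e-08 and 3.12e-08), and 6 of 6 tested T cell genes were higher, with a median of 0.86. B cell genes had 3 higher and 0 lower of 5, with Cd79b, a chain of the B cell receptor, at 1.22 ± 0.29 and Vpreb3, a gene of B cell precursors, at 0.62 ± 0.258 (SE, limma adjusted p = 0.000794 and 0.0418). Cd79b had 1.3 to 42.3 FPKM in neutrophil-rich paws, against 0.169 to 4.74 FPKM in neutrophil-poor paws. The 42.3 FPKM were those of a combination paw, and the next highest rich paw had 9.91 FPKM. Combination replicate 6 had the highest mean levels of the B cell and T cell lists, 2.81 and 1.99. Its neutrophil score, 4.71, was the lowest of the rich paws. Under anti-IL-6 the B cell list had a median difference of -0.07. Plasma cell genes had 1 higher (Xbp1, 0.23 ± 0.068) and 1 lower (Prdm1, -0.23 ± 0.0969) of 8, both transcription factors of plasma cells that other tissues express. Among 8 mast cell genes 1 was higher, Fcer1a, the IgE receptor alpha chain, at 0.51 ± 0.141 (SE, limma adjusted p = 0.00276). Over all genes 37.9% were higher and 20% lower, so the plasma cell and mast cell counts lay below the shares of all genes.

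Interferon-induced genes were higher in the neutrophil-rich paws. Of 20 tested, 18 were higher and 0 lower, with a median of 0.59. Zbp1, a sensor of unusual nucleic acids, had 3.66 to 14.6 FPKM in neutrophil-rich paws (median 7.48), against 1.74 to 5.69 FPKM in neutrophil-poor paws (median 2.84), and no CIA paws had 0.788 to 1.23 FPKM. Oasl2, a member of the oligoadenylate synthetase family with close copies, had 4.54 to 25.2 FPKM in neutrophil-rich paws (median 11.1), against 3.47 to 6.63 FPKM in neutrophil-poor paws (median 4.46), and no CIA paws had 0.955 to 1.82 FPKM. For both genes every neutrophil-poor paw lay above every no CIA paw, all of which were in index run 1, while the rich and poor groups overlapped. Log2 differences were 1.12 ± 0.165 and 1.00 ± 0.16 (SE, limma adjusted p = 2.11e-06 and 6.47e-06). The list's mean level was 1.95 to 3.44 in neutrophil-rich paws (median 2.67), against 1.76 to 2.22 in neutrophil-poor paws (median 2.03), and 1.23 to 1.48 in no CIA paws, on the log2(FPKM + 1) scale.

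All 10 fibrillar matrix genes were higher, at a median of 2.06. Col1a1 and Col1a2 encode the chains of type I collagen. Col1a1 had 658 to 3246 FPKM in neutrophil-rich paws (median 2072), against 153 to 1479 FPKM in neutrophil-poor paws (median 285). Col1a2 had 663 to 3143 FPKM in neutrophil-rich paws (median 1959), against 209 to 1492 FPKM in neutrophil-poor paws (median 329). Single poor paws overlapped the rich range, and log2 differences were 2.54 ± 0.274 and 2.31 ± 0.24 (SE, limma adjusted p = 3.39e-08 and 1.99e-08). Cthrc1, a secreted protein of activated fibroblasts, had 10.7 to 203 FPKM in neutrophil-rich paws (median 90.7), against 1.22 to 82.8 FPKM in neutrophil-poor paws (median 3.97), which is 3.59 ± 0.41 on the log2 scale (SE, limma adjusted p = 6.58e-08). Of 12 synovial fibroblast genes 10 were higher and 2 lower (median 0.86), against 37.9% higher and 20% lower of all genes. Tnc, the matrix glycoprotein tenascin C, was higher by 2.24 ± 0.227, and Cdh11, the cadherin that joins synovial fibroblasts, by 1.97 ± 0.195 (SE, limma adjusted p = 1.64e-08 and 1.36e-08). The lower ones, Clic5 at -0.79 and Cd55 at -0.40, are expressed in the lining layer of the synovium and were named after their values were seen (limma adjusted p = 0.00055 and 0.000749). Prg4, another lining gene of the list, was among the 10 higher, so the lining genes went both ways.

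All 12 tested genes of the osteoclast list were higher, with a median of 1.45. The list holds genes of bone-resorbing cells and also Tnfsf11 and its decoy receptor Tnfrsf11b, which other cells make. Ctsk, the collagenase cathepsin K of osteoclasts, had 121 to 1113 FPKM in neutrophil-rich paws (median 444), against 34.4 to 351 FPKM in neutrophil-poor paws (median 66.4). Atp6v0d2, a proton pump subunit needed for osteoclast fusion, had 1.93 to 43.4 FPKM in neutrophil-rich paws (median 9.9), against 0.358 to 6.4 FPKM in neutrophil-poor paws (median 0.831). Ctsk overlapped within anti-TNF, Atp6v0d2 was apart within every treatment, and log2 differences were 2.54 ± 0.267 and 2.47 ± 0.254 (SE, limma adjusted p = 2.37e-08 and 1.82e-08). Tnfsf11, the osteoclast-inducing ligand RANKL, named after its value was seen, had 0.969 to 12.1 FPKM in neutrophil-rich paws (median 2.95), against 0.0587 to 1.34 FPKM in neutrophil-poor paws (median 0.141), which is 1.77 ± 0.199 on the log2 scale (SE, limma adjusted p = 5.7e-08).

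Bone-forming cells' genes were higher too, in 8 of 9 tested (median 1.99). Ibsp, the bone sialoprotein, had 19.6 to 241 FPKM in neutrophil-rich paws (median 159), against 3.46 to 99.96 FPKM in neutrophil-poor paws (median 8.6), and Bglap, which encodes osteocalcin and has close copies, had 13 to 847 FPKM in neutrophil-rich paws (median 579.6), against 27.8 to 327 FPKM in neutrophil-poor paws (median 68.3). Ibsp overlapped within anti-TNF, Bglap within every treatment but the combination, and their log2 differences were 3.29 ± 0.402 and 2.24 ± 0.523 (SE, limma adjusted p = 1.58e-07 and 0.000676). Osteoblast and osteocyte genes had a mean level of 1.92 to 5.11 in neutrophil-rich paws (median 4.44), against 2.02 to 4.29 in neutrophil-poor paws (median 2.43), and the 20 paws in between had a median of 4.47, about that of the rich paws. Of 9 cartilage genes 8 were higher and 1 lower, with a median of 0.99. Col2a1, the collagen of cartilage and the mouse counterpart of the immunising protein, had 0.363 to 309 FPKM in neutrophil-rich paws (median 42.3), against 0.356 to 96.3 FPKM in neutrophil-poor paws (median 3.52), a wide overlap. Col11a1, a minor cartilage collagen, had 2.94 to 30.1 FPKM in neutrophil-rich paws (median 14.8), against 0.635 to 9.71 FPKM in neutrophil-poor paws (median 1.32). Log2 differences were 2.60 ± 0.652 and 2.42 ± 0.263 (SE, limma adjusted p = 0.00129 and 3.76e-08).

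Endothelial genes were higher in 10 of 10 cases, with a median of 0.90. Vcam1, an adhesion molecule that binds leukocytes, had 9.71 to 28.7 FPKM in neutrophil-rich paws (median 14.7), against 1.63 to 9.16 FPKM in neutrophil-poor paws (median 2.99), without overlap. Selp, the selectin on which neutrophils roll, had 2.65 to 43.1 FPKM in neutrophil-rich paws (median 14.4), against 1.06 to 9.41 FPKM in neutrophil-poor paws (median 1.97). Log2 differences were 2.01 ± 0.166 and 2.27 ± 0.263 (SE, limma adjusted p = 3.67e-09 and 8.29e-08). Vcam1 had the smallest adjusted p of the genes named here. Leukotriene and prostaglandin enzymes were mixed, with 5 higher and 2 lower of 9, against 37.9% higher and 20% lower of all genes. Under median-of-ratios scaling 4 were higher and 3 lower. The higher ones included Alox5ap, the activating protein of 5-lipoxygenase, at 0.71 ± 0.152, and Ptges, a prostaglandin E synthase, at 0.52 ± 0.0942 (SE, limma adjusted p = 0.000274 and 3.58e-05). Cell cycle genes had 6 higher of 12 by small amounts, a share not far from the 37.9% of all genes, and 2 with the index run as a covariate and 4 under median-of-ratios scaling. Their largest differences were those of the replication helicase subunits Mcm3 at 0.43 and Mcm2 at 0.31 (limma adjusted p = 0.000398 and 0.00161).

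**Figure D3:**
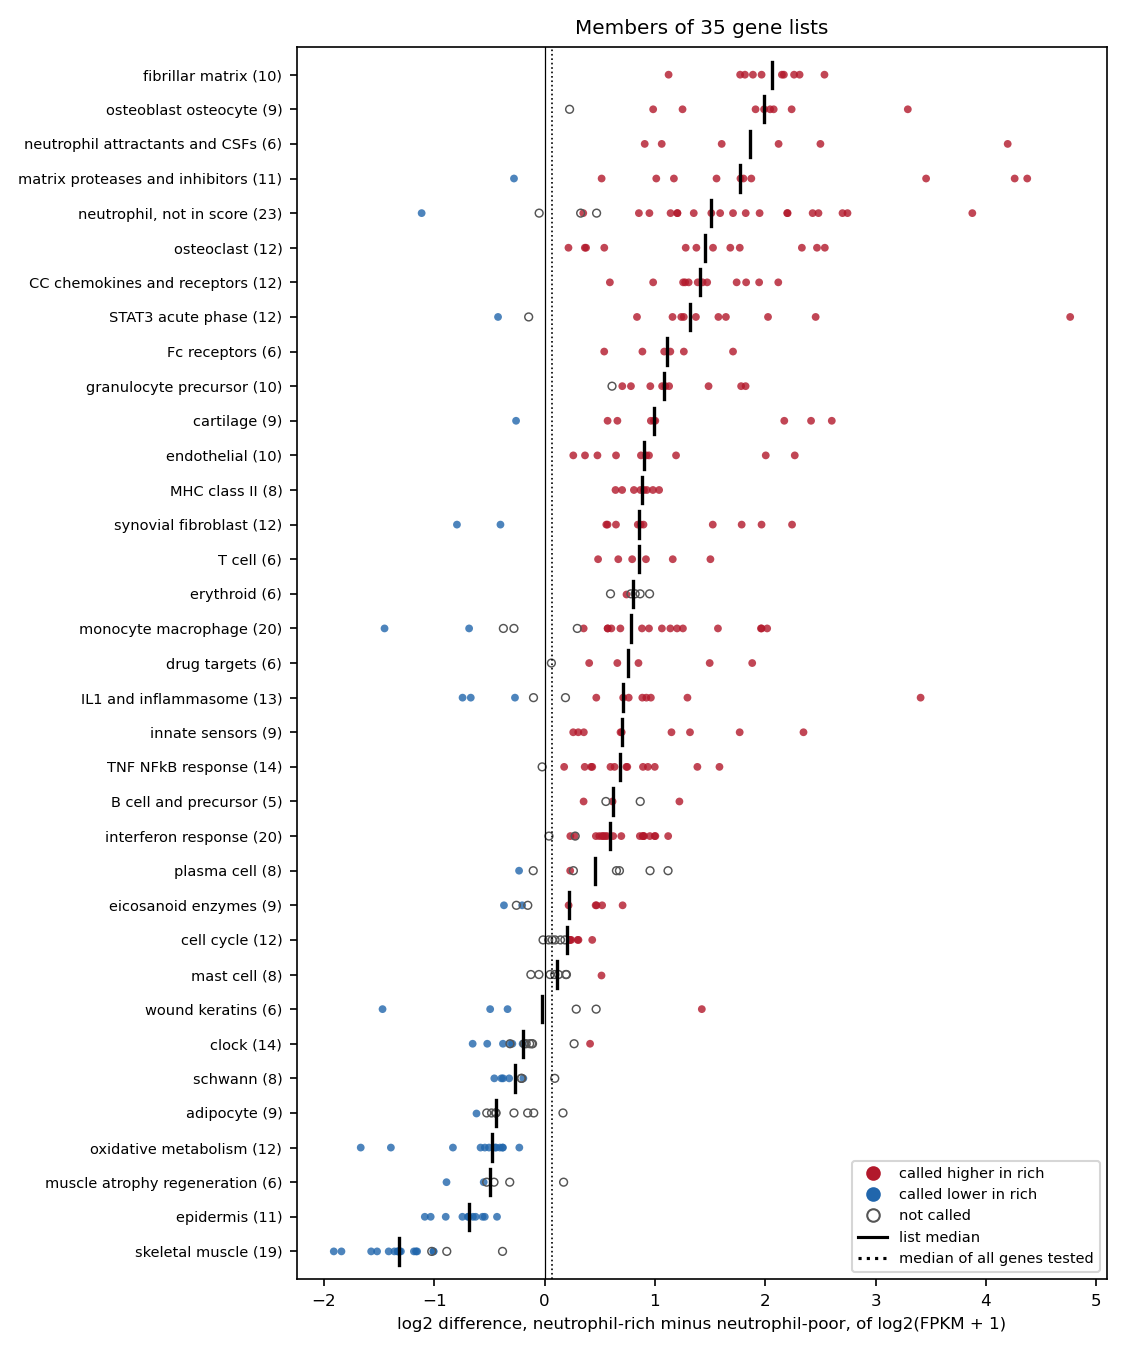
Log2 differences (horizontal axis, neutrophil-rich minus neutrophil-poor, log2(FPKM + 1) scale) of the tested members of 35 gene lists (rows, number tested in parentheses); filled points were called, open points were not, black bars are list medians and the dotted line is the median of all 14303 genes, 0.07. Fibrillar matrix and osteoblast genes have medians of 2.06 and 1.99 at the upper end, and skeletal muscle has -1.31 at the lower end.

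Of the 8 lowest genes named by size, 6 are expressed in muscle. Of 19 skeletal muscle genes 16 were lower and 0 higher, with a median of -1.31. Myl2, the regulatory light chain of slow and cardiac muscle myosin, had 3.68 to 117 FPKM in neutrophil-rich paws (median 22.2), against 16.7 to 326 FPKM in neutrophil-poor paws (median 159). The groups were apart within anti-TNF, anti-IL-6 and the combination and overlapped under isotype, where a rich paw reached 117 FPKM and a poor paw stood at 16.7 FPKM. Myl2 was lower, at -2.67 ± 0.385 (SE, limma adjusted p = 1.67e-06), and at -3.60 to -1.87 within index runs. Csrp3, a LIM protein of the muscle Z-disc, had 12.7 to 146 FPKM in neutrophil-rich paws (median 44.3), against 53.3 to 531 FPKM in neutrophil-poor paws (median 291). Smtnl1, a regulator of muscle contraction, had 2.17 to 20.5 FPKM in neutrophil-rich paws (median 6.77), against 7.26 to 73.2 FPKM in neutrophil-poor paws (median 43). Both were likewise apart in these 3 treatments and overlapped under isotype, with log2 differences of -2.48 ± 0.293 and -2.36 ± 0.285 (SE, limma adjusted p = 1.05e-07 and 1.39e-07). The Z-disc protein Myoz2, the small heat shock protein Hspb6 and the mitochondrial creatine kinase Ckmt2 were lower, at -2.03 ± 0.304, -1.98 ± 0.363 and -2.08 ± 0.474 (SE, limma adjusted p = 2.8e-06, 4.23e-05 and 0.000532).

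Among the listed muscle genes, Mb, the oxygen store myoglobin, was lower, at -1.91 ± 0.313, and so was Myh2, the myosin of fast oxidative fibres, at -1.84 ± 0.332 (SE, limma adjusted p = 9.98e-06 and 3.56e-05). All 12 tested genes of oxidative metabolism were lower, with a median of -0.48. The muscle isoforms Cox7a1 and Cox6a2 of cytochrome oxidase subunits were lowest, at -1.67 ± 0.355 and -1.39 ± 0.368 (SE, limma adjusted p = 0.000259 and 0.00212). Of 6 genes of muscle atrophy and regeneration 2 were lower, not far from the 20% of all genes. They were the ubiquitin ligase Trim63 at -0.89 and the embryonic myosin Myh3 at -0.55 (limma adjusted p = 0.0393 and 0.00228). The muscle list's mean level was 6.19 to 10.43 in neutrophil-rich paws (median 7.79), against 7.37 to 10.54 in neutrophil-poor paws (median 9.34), and 8.15 to 10.19 in no CIA paws, so the 2 groups and the no CIA paws overlapped.

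Epidermal genes were lower in 11 of 11 cases, with a median of -0.69. Lor, the cornified envelope protein loricrin, had 372 to 2173 FPKM in neutrophil-rich paws (median 1362), against 1519 to 4444 FPKM in neutrophil-poor paws (median 2672). Flg, which encodes filaggrin, had 187 to 2337 FPKM in neutrophil-rich paws (median 1089), against 1121 to 4099 FPKM in neutrophil-poor paws (median 2042). Both overlapped, with log2 differences of -1.08 ± 0.175 and -1.03 ± 0.24 (SE, limma adjusted p = 8.03e-06 and 0.000652). The stress keratinocyte list went both ways, with Sprr1b at -1.47 and Sprr2d, which has close copies, at 1.43 (limma adjusted p = 8.06e-05 and 0.0199), both of them cornified envelope precursors, and 1 higher and 3 lower of 6 in all. Schwann cell genes had 5 lower of 8, among them Mbp, which encodes myelin basic protein, at -0.39 (limma adjusted p = 0.0207). With the index run as a covariate 1 of the 8 was lower, without run 1 there were 2, and with the muscle and epidermis levels as covariates 2 were higher and 0 lower. Of 9 adipocyte genes 1 was lower, against 20% of all genes. This was Cidec, a lipid droplet protein, at -0.62 (limma adjusted p = 0.0184). Under median-of-ratios scaling 6 were lower, in a fit that called 4341 of all 14303 genes lower. Clock genes had 6 lower and 1 higher of 14, with the repressors Nr1d1 at -0.65 and Ciart at -0.52 (limma adjusted p = 0.000134 and 0.00603). Cytl1, a small secreted cytokine-like protein outside these lists, had 4.47 to 33.2 FPKM in neutrophil-rich paws (median 9.94), against 13.7 to 102 FPKM in neutrophil-poor paws (median 56.6), which is -2.25 ± 0.28 on the log2 scale (SE, limma adjusted p = 2e-07).

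Tissue markers thus moved with the neutrophil score, and their part in the gene results was not tested. The mean level of the fibrillar matrix list was 6.93 to 9.35 in neutrophil-rich paws (median 8.78), against 5.76 to 8.61 in neutrophil-poor paws (median 6.47), and that of the epidermis list 7.97 to 9.98 in neutrophil-rich paws (median 9.50), against 9.29 to 10.55 in neutrophil-poor paws (median 10.12). With the muscle and epidermis levels as covariates, 250 genes were called higher and 46 lower, and 247 of these 296 were among the 8282 called without them. Of 80 genes named for their difference, 16 passed in that fit. The 13 higher ones were Mmp13 at 2.91, Lcn2 at 2.59, Ly6c2 at 2.23, Mmp9 at 2.19, Sprr2d at 2.14, Cd79b at 1.94, Slc4a1 at 1.81, Col1a2 at 1.37, Trac at 1.204, Vcam1 at 1.18, Tnc at 1.06, Cdh11 at 1.04 and Tnf at 0.83, and the 3 lower ones were Csrp3 at -2.01, Myoz2 at -1.03 and Smtnl1 at -0.93. Without the covariates Mmp13 had 4.38, Lcn2 2.75, Mmp9 3.88, Trac 1.16, Vcam1 2.01 and Tnf 0.85. In the same fit 0 of 12 CC chemokine and receptor genes, 0 of 20 interferon-induced genes and 0 of 12 genes of the osteoclast list were called, at medians of 0.35, 0.28 and 0.54. With 250 higher and 46 lower of all 14303 genes in that fit, 0 calls are common for lists of this size. With the fibrillar matrix level as the covariate, an alternative chosen after the data were seen, 7 genes were called higher and 5 lower, with 1385 at an unadjusted p under 0.05. The higher ones included Trac at 1.21 and Ltb, which encodes lymphotoxin beta, at 1.81 (limma adjusted p = 0.0485 each; Ltb was named after its value was seen). Trac alone of the 80 passed in that fit. Neutrophil score and matrix level rose together in these paws, and their parts in the other genes cannot be told apart here.

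**Figure D4:**
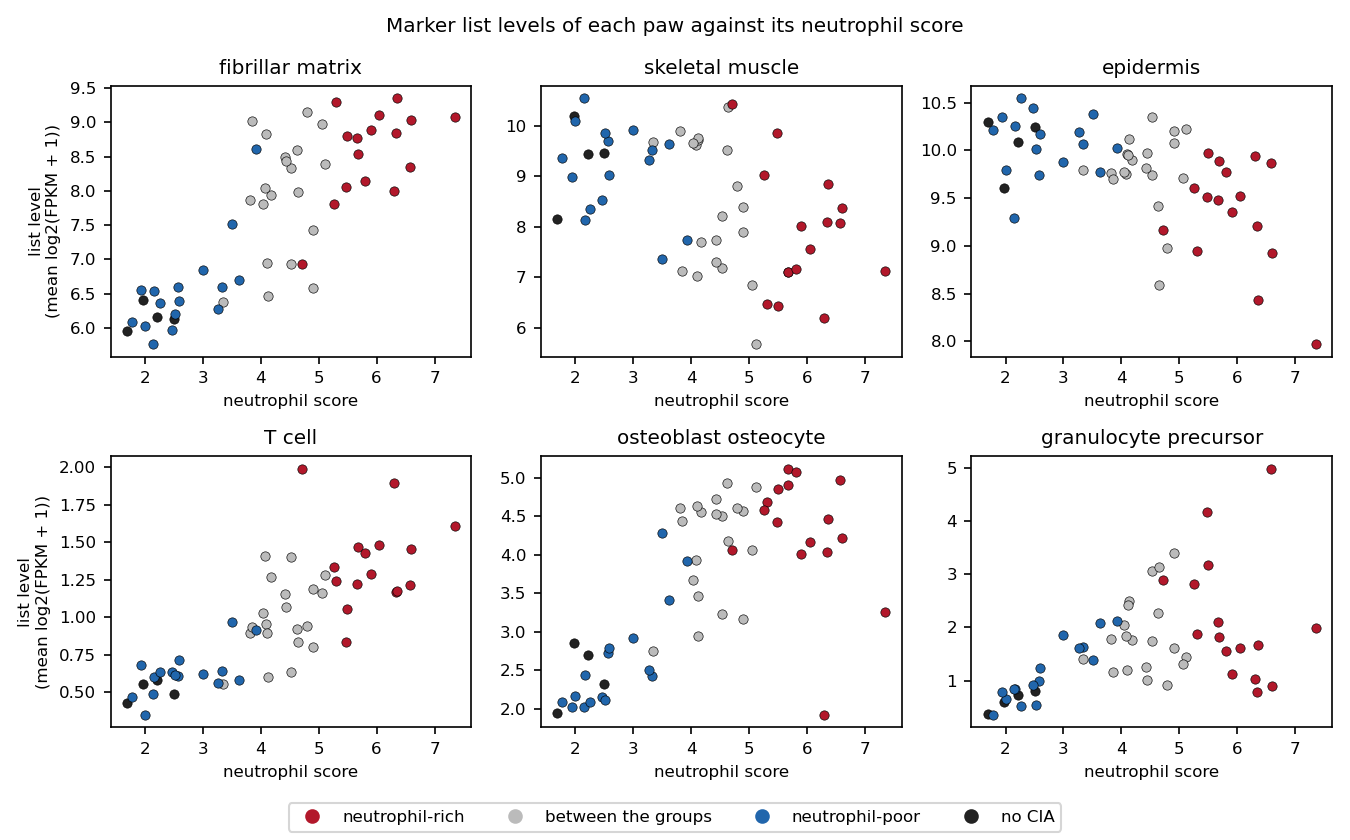
Mean log2(FPKM + 1) of 6 marker lists (vertical axes) against the neutrophil score (horizontal axes); each point is 1 of 56 paws, coloured as neutrophil-rich, in between, neutrophil-poor or no CIA. Fibrillar matrix and T cell levels climb with the score, muscle and epidermis levels tend to fall with wide scatter, osteoblast levels are already high in the paws in between (median 4.47), and granulocyte precursor levels fan out among the rich paws from 0.79 to 4.98.

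Whether the difference depended on treatment was asked next. Of 8282 called genes, 6995 (84.5%) had the same direction in all 4 treatments, against 7722 of all 14303 tested genes (54.0%). The called genes were chosen on the pooled difference of the same paws, so this share is a description. By the limma interaction test 0 genes differed between treatments after adjustment, with 2196 (15.4%) at an unadjusted p under 0.05. The smallest interaction p belonged to Madd, an exchange factor for Rab3, and to Dnajc9, Plet1, Nbeal2 and Kif15 (adjusted p = 0.249 for each). Madd had a log2 difference of 0.48 under anti-TNF, -0.12 under anti-IL-6, -0.10 in the combination group and -0.12 under isotype. Dnajc9, a histone chaperone of the DnaJ family, had 0.30, -0.30, -0.18 and -0.29 in the same order. In all 5 genes the anti-TNF difference was the highest of the 4.

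With the spread shared over all treatments, 4709 genes (32.9%) were higher and 1238 (8.66%) lower between rich and poor paws under anti-TNF. These numbers were 3221 (22.5%) and 1936 (13.5%) under anti-IL-6, 1211 (8.47%) and 375 (2.62%) in the combination group, and 1683 (11.8%) and 673 (4.71%) under isotype. When the 8 anti-TNF paws were fitted alone, 0 genes were called, with 5886 at an unadjusted p under 0.05 and a smallest adjusted p of 0.067. Counts of calls were not compared between treatments by a test.

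List medians had the same sign in all 4 treatments for the inflammatory and matrix lists and differed in size. Neutrophil attractants had medians of 1.84 under anti-TNF, 2.70 under anti-IL-6, 1.48 in the combination group and 1.76 under isotype. Fibrillar matrix genes had 1.40, 2.65, 1.80 and 2.20, and T cell genes 1.10, 0.90, 1.04 and 0.35, in that order. Muscle genes ranged widely, with -2.43, -1.76, -0.26 and -0.68. Red cell genes had 0.96, -0.37, 0.86 and 1.72, so their sign turned under anti-IL-6. The sign also turned there for B cell genes, with 0.93, -0.07, 0.93 and 1.00, and for plasma cell genes, with 0.78, -0.07, 0.18 and 0.89. The median over all tested genes was 0.20 under anti-TNF, 0.05 under anti-IL-6 and 0.02 in each of the other treatments. Each list median rests on 4 rich and 4 poor paws, and differences between treatments were tested for single genes only.

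**Figure D5:**
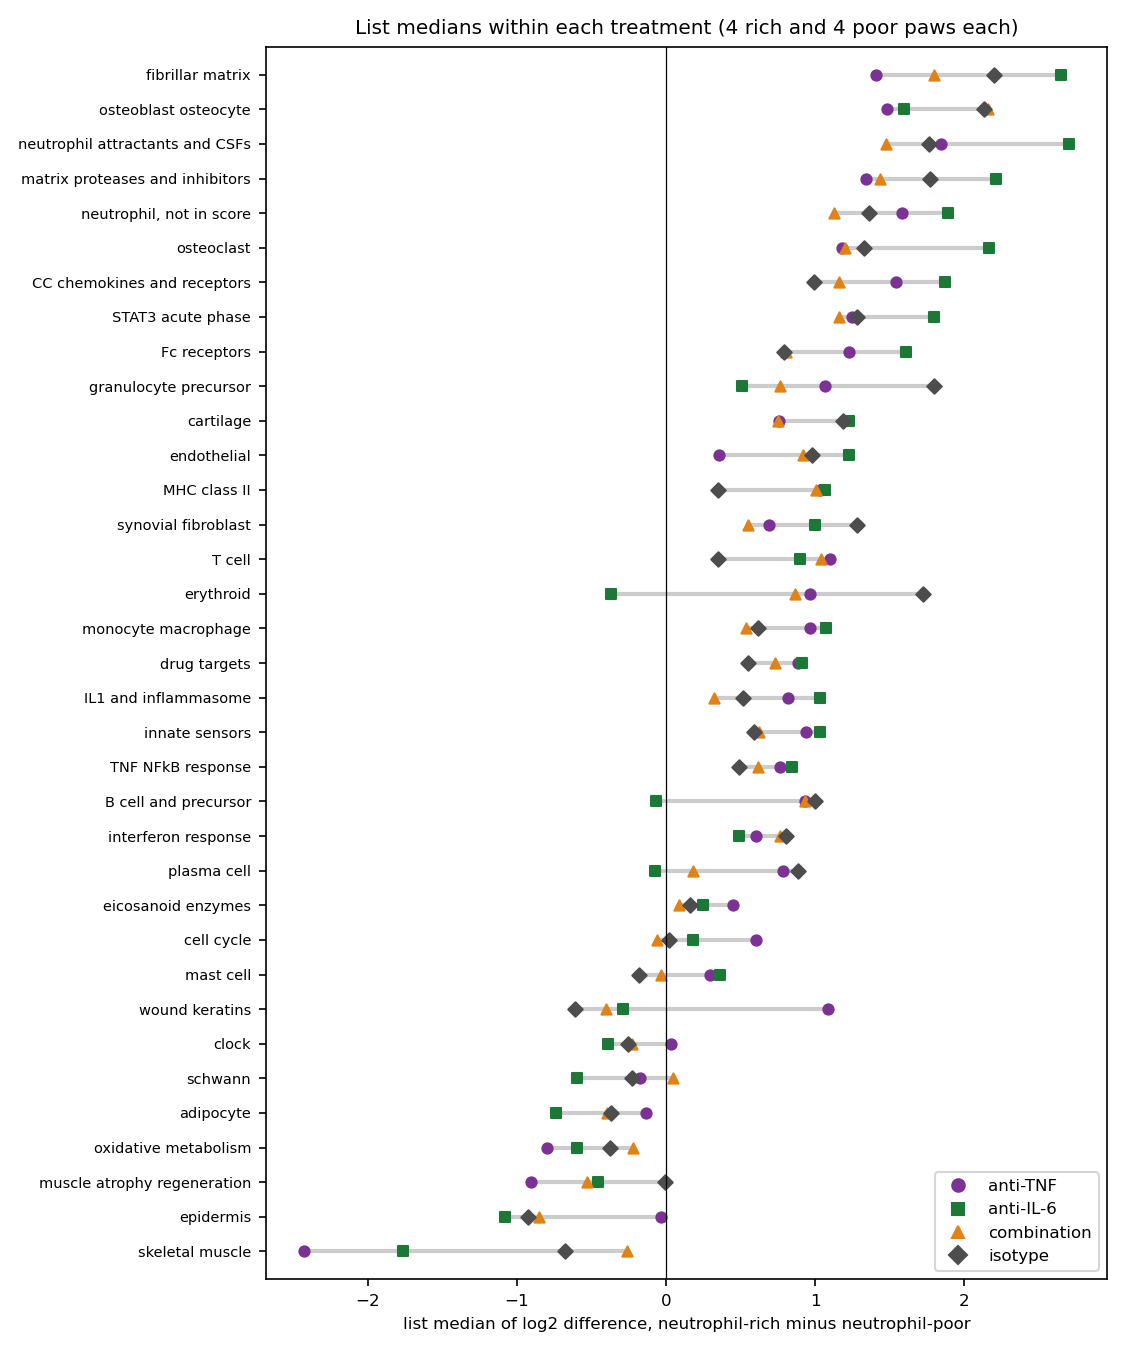
List medians of the log2 difference between neutrophil-rich and neutrophil-poor paws (horizontal axis) within each treatment (marker shape and colour), for 35 gene lists (rows, ordered by the pooled median); grey bars join the lowest and highest treatment. Attractant, matrix and T cell lists lie above 0 in all 4 treatments, skeletal muscle spans -2.43 to -0.26, and the erythroid list spans -0.37 to 1.72.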

How the data were processed

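Whole front paws of 56 mice were sequenced from TruSeq Stranded mRNA libraries on an Illumina sequencer, per the labels' protocols. The authors deposited 1 matrix of FPKM values for 53431 features, of which 52207 had a gene symbol; the unit was read from the values. DESeq2 appears in the submitters' processing notes, with no version. Aligner, genome build, annotation and the strand setting of counting: not given in the sources used here, so overlapping and antisense genes and close copies are uncertain. The deposited matrix holds no counts, and depth was estimated from the size of the smallest steps between low values. Its precision was not carried into the tests.

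Deposited FPKM values were turned into log2(FPKM + 1) values, so that differences of low genes come out too small. Genes with a mean of at least 1 FPKM over the 52 immunised paws were tested, 14303 in all, leaving out the 5 score genes. limma 3.58.1 in R 4.3.3 fitted neutrophil group and treatment with Benjamini-Hochberg adjustment at 0.05 over all tested genes; every p-value comes from these fits of the deposited values. Neutrophil-rich and neutrophil-poor paws were sorted on RNA from the same libraries. A p-value therefore weighs a gene's difference between groups formed by the score against its spread between paws, not an effect of an assigned treatment. A second fit tested the group by treatment interaction and another the slope on the score in the other 20 paws. The fits were tested on simulated data. The groups and the 35 gene lists were chosen with earlier results of these data known, and the lists get no test of their own. Genes named are the 8 largest changes in each direction with a mean of at least 5 FPKM, the 2 largest called members of each list, the antibody target genes and the 5 smallest interaction p-values, 85 in all with a gene left out that is not reported here; the text says where others are named. No mouse is called arthritic or not, since clinical scores were not analysed here.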

Additional observations from a re-analysis of the deposited data

Results flagged for a closer look

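Among the 4 no CIA paws, a single paw stood far from the other 3 for 3 of the 22 genes checked this way. Dixon's ratio, the gap to the nearest paw divided by the whole range, is beyond its 95% critical value for 4 samples in each case, and chance alone gives about 1 in 20 groups. For Il1b the ratio was 0.895, with 0.640, 0.651, 0.904 and 3.16 FPKM in the 4 paws. For Il6 it was 0.834, with 0, 0.0227, 0.0235 and 0.141 FPKM. For Il6ra it was 0.866, with 4.57, 5.35, 5.42 and 5.47 FPKM, where the low paw is the one apart. The 8 groups of 4 neutrophil scores, checked in the same way, held no such paw.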

How the results depend on the processing

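Counts of genes called higher and lower moved by over 1.5 times under 9 alternatives. Median-of-ratios scaling gave 3962 higher and 4341 lower, against 5422 and 2860. With muscle and epidermis levels as covariates there were 250 and 46. The fibrillar matrix level gave 7 and 5 and the osteoblast level 3249 and 1769, both added after the data were seen. Treatments fitted alone gave 0 and 0 under anti-TNF, 2914 and 1567 under anti-IL-6, 1033 and 564 in the combination group, and 1346 and 233 under isotype, and without the anti-IL-6 treatment 1821 were lower. These last fits hold fewer paws; the cause of the other shifts was not tested. Leaving out each paw in turn gave 5102 to 5805 higher and 2689 to 2953 lower genes, 0 to 1 interaction genes (1 without anti-TNF replicate 12) and 0 to 0 slopes in the other 20 paws. No filter on low values gave 7092 and 3224 and the index run as a covariate 4844 and 2372.

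Over 28 alternative settings with 80 named genes each, 38 pairs of gene and setting changed sign and 359 were no longer called. Over the fits that left out a paw these numbers were 0 and 53. Il6ra had -0.018 under median-of-ratios scaling, -0.082 with the muscle and epidermis covariates, -0.054 with the matrix covariate, -0.0735 under isotype alone, -0.0731 without anti-TNF and -0.19 in the combination group alone. With the muscle and epidermis covariates Ccl7 had -0.00374, Nr1d1 0.032, Cox7a1 0.10, Ckmt2 0.42, Flg 0.055, Ciart 0.022, Cidec 0.39 and Mbp 0.43. With the granulocyte precursor covariate Ngp had -0.018 and Slc4a1 -0.093. With the matrix covariate Tnfaip6 had -0.23, Cox7a1 0.21, Tnfrsf1a -0.20, Ckmt2 0.41, Cox6a2 0.46, Xbp1 -0.00317, Cidec 0.22, Mbp 0.23 and Trim63 0.45. With the osteoblast covariate Bglap had -0.858, Col2a1 -0.91, Camp -0.34, Ngp -0.40, Slc4a1 -0.045, Trim63 0.19 and Vpreb3 -0.24. Under isotype alone Sprr2d had -0.17, under anti-TNF alone Ciart 0.077 and Prdm1 0.22, under anti-IL-6 alone Slc4a1 -0.13 and Vpreb3 -0.098, and in the combination group alone Mbp 0.084. No paired analysis was possible because the replicate numbers follow sample order and pair no mice. Depth of 39.8 to 54.6 M fragments limits genes near 0 FPKM, such as Il17a, which were not tested.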
